A study of Marchantia polymorpha with 12 samples.

Results

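In gemmalings of the liverwort Marchantia polymorpha, 100 of 18100 genes with identifiers from chromosomes 1 to 8 were far higher in the Mphy5 mutant than in the wild type Tak-1, with and without UV-B. They were chosen on the measured values themselves: in each UV-B state, the mean of the 3 Mphy5 libraries plus 1 had to be at least 20 and more than 4 times the mean of the 3 Tak-1 libraries plus 1, and the lowest of the 6 Mphy5 libraries had to lie above the highest of the 6 Tak-1 libraries. These genes made up 0.552% of the 18100. Their difference between the lines is therefore a description and carries no test. The mirrored choice, with Tak-1 over Mphy5, gave 78 genes. Over all 15999 tested genes, limma called 29.8% between the lines with UV-B and 24.9% without it, at an adjusted p under 0.05.

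RNA came from gemmalings aged 7 days, young plants sprouted from asexual buds called gemmae, raised in white light of 50 µmol m-2 s-1. The 4 groups of 3 libraries were the Mphy5 mutant (genotype label Mphy5-1) after 3 h of added UV-B at a fluence rate of 1.5 µmol m-2 s-1, Mphy5 without added UV-B, the wild type Tak-1, a male line, after the same UV-B, and Tak-1 without it. Only 1 mutant line was labelled, so an effect of the mutation and any other difference between the lines cannot be told apart. The labels do not say whether replicates were separate cultures, so p-values measure the spread between these samples, which may be technical. They give no hour of harvest either, so UV-B and any difference in the hour of sampling cannot be told apart.

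HY5, a transcription factor of the bZIP family, works downstream of photoreceptors in flowering plants, where it binds the promoters of many light-responsive genes and is removed by the COP1 ubiquitin ligase in the dark. It also takes part in the UV-B response of flowering plants, including the switching on of flavonoid genes. Many of the named genes described here carry names of defence and cell wall families instead: class III peroxidases, secreted enzymes that oxidise phenolic compounds with hydrogen peroxide, pathogenesis-related proteins, and glycoside hydrolases that cut chitin or glucans.

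The libraries held 44787979 to 67532310 reads, and the values are reads divided by 1 size factor per library, called normalized reads. Read numbers also depend on transcript length, so they are compared between libraries and not between genes. A floor of 3 reads corresponds to 2.34 to 3.58 normalized reads, and floors and intervals here cover counting error only. The transcript of MpBZIP1 (Mp1g16800), taken here as MpHY5, lay at 15534 to 16815 normalized reads in Mphy5 and 5745 to 6354 in Tak-1 with UV-B, and at 1521 to 1592 in Mphy5 and 1281 to 1418 in Tak-1 without it. It was thus not lower in Mphy5, with no overlap between the lines in either state, and its level does not check the mutant label. Of 6 markers found for oil body cells, gemma cups, air pores and sexual organs, 5 overlapped between the lines over both UV-B states together. The oil body marker MpSYP12B did not, with 426 to 550.4 in Mphy5 and 240.3 to 339 in Tak-1. Within each state, the oil body marker MpERF13 and the gemma cup marker MpGCAM1 did not overlap either. The oil body marker MpC1HDZ did not with UV-B, nor the air pore marker MpNOP1 without it. The sexual organ marker MpDUO1 overlapped in both states. MpERF13 had 338 to 372 in Mphy5 and 243 to 312 in Tak-1 with UV-B, and 396 to 444 and 333 to 348 without it. The sum of the 3 oil body markers was 4537 to 4989 in Mphy5 and 3515 to 4124 in Tak-1 with UV-B, and 3546 to 3925 and 3179 to 3412 without it. The gemma cup marker MpGCAM1 had 57.5 to 90.8 in Mphy5 and 12.8 to 56.4 in Tak-1 with UV-B, and 137 to 158 and 57 to 89.9 without it. The part of differing cell types in the results was not tested, and fewer cells of a type and less RNA per cell cannot be told apart in whole gemmalings.

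All 100 genes passed the filter for testing, which asked for 1 normalized read or more in 3 libraries or more. Together they held 83883 to 87723 normalized reads in the Mphy5 libraries and 9104 to 9987 in the Tak-1 libraries. The smaller of the ratios in both UV-B states ran between 4.02 and 962.6 with a median of 7.19. It was under 10 for 63 genes, from 10 to 50 for 29 and above 50 for 8. The median of the mean levels was 175 in Mphy5 and 10.8 in Tak-1. In Mphy5, 37 genes averaged under 100, 48 between 100 and 1000, and 15 above 1000 normalized reads. In Tak-1, 5 genes were at 0 in all 6 libraries and 11, these 5 included, had at most 3 reads in each of the 6, while 48 were above 3 reads in every one.

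**Figure D1:**
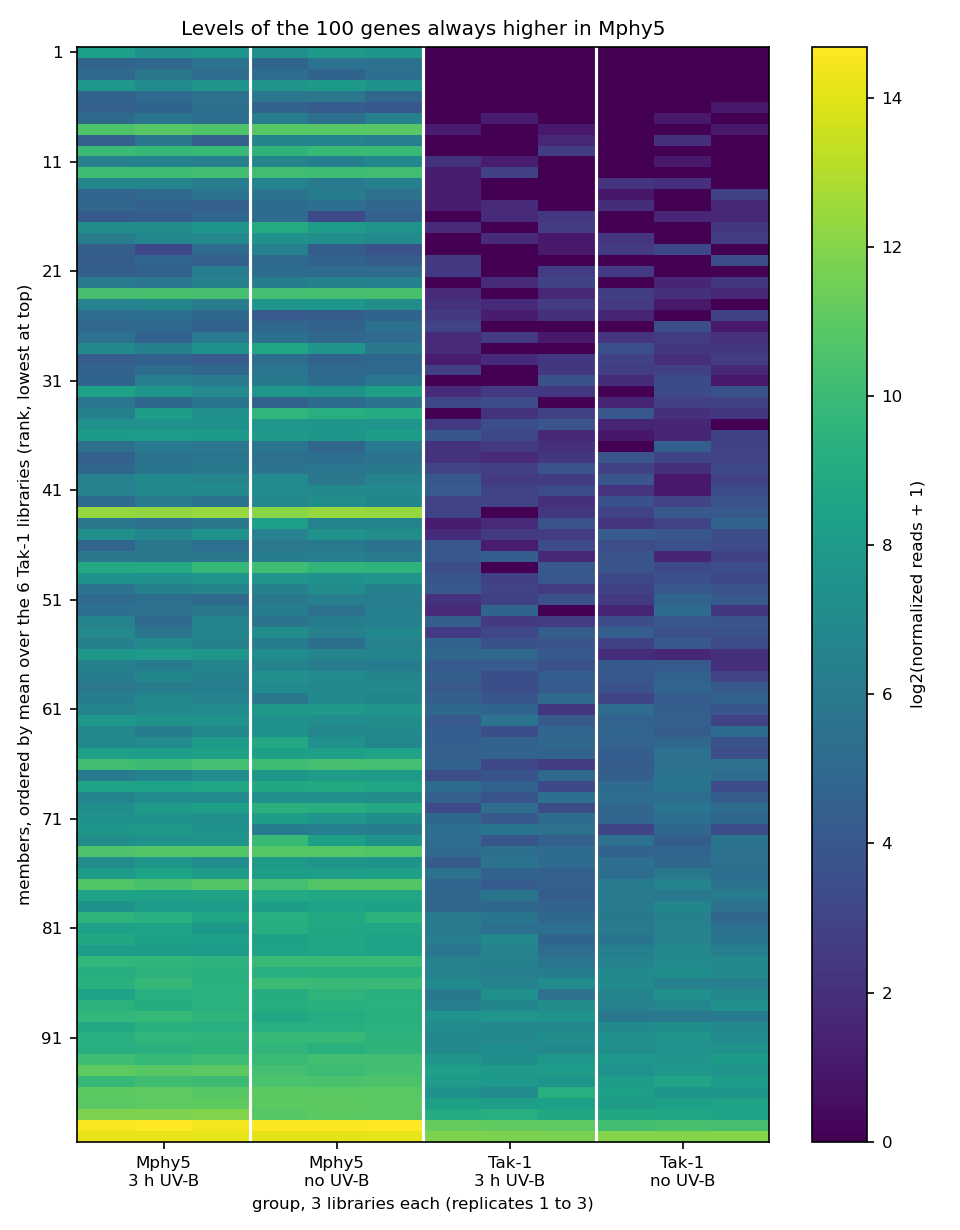
Heat map of the 100 genes (rows, lowest mean over the Tak-1 libraries at the top) in the 12 libraries (columns, 3 per group); the colour is log2(normalized reads + 1). Every row is brighter in the 6 Mphy5 columns than in the 6 Tak-1 columns, and the 5 top rows are at 0 in Tak-1.

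Of the 100 genes, 25 have a symbol in the list of gene names, against 3110 of all 18255 identifiers (17%). Of these 25, 11 (44%) are peroxidases, as are 166 of the 3110 symbols (5.34%). The family has many similar copies, and how reads matching several genes were treated was not given in the sources used here, which leaves the split of reads among its members uncertain. MpPOD89 (Mp5g10700), the peroxidase with the most reads here, had 2003, 2134 and 1889 normalized reads with UV-B and 2056, 1951 and 1964 without it in Mphy5, against 174, 137 and 617 with and 323, 214 and 217 without it in Tak-1. The 6 Mphy5 libraries lay close together, whereas replicate 3 of Tak-1 with UV-B stood above the other 5 Tak-1 libraries. MpPOD73 (Mp5g04320) had 369, 348 and 388 normalized reads with UV-B and 431, 485 and 418 without it in Mphy5, against 36, 22.2 and 8.36 with and 33.9, 51 and 9.24 without it in Tak-1. MpPOD76 (Mp5g04880) had 309, 301 and 329.6 with UV-B and 322, 314 and 347 without it in Mphy5, against 22.1, 23.4 and 24 with and 20.2, 43 and 10.3 without it in Tak-1. The Tak-1 libraries of MpPOD73 spread widely in both UV-B states and those of MpPOD76 without UV-B, and none came near the lowest Mphy5 library.

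MpPOD138 (Mp6g13550) had 346, 580.5 and 658 normalized reads with UV-B and 537, 734 and 642 without it in Mphy5, against 59.3, 161 and 44.9 with and 93.5, 171 and 120.1 without it in Tak-1. MpPOD82 (Mp5g07230) had 433, 334 and 309 with UV-B and 319, 401 and 362 without it in Mphy5, against 76.7, 114 and 25.1 with and 51.4, 91.1 and 51.3 without it in Tak-1. MpPOD54 (Mp5g01660) had 188, 272 and 262 with UV-B and 291, 357 and 320.0 without it in Mphy5, against 27.9, 29.2 and 24 with and 62.4, 107 and 46.2 without it in Tak-1. Between the lowest Mphy5 library and the highest Tak-1 library, the gap in these 3 peroxidases was narrower. MpPOD55 (Mp5g01670), the listed neighbour of MpPOD54, had 47.2, 85 and 100.3 with UV-B and 82.4, 143 and 86.3 without it in Mphy5, against 16.3, 7.01 and 5.22 with and 6.42, 15 and 12.3 without it in Tak-1. MpPOD49 (Mp4g16740) had 66.5, 52.6 and 82.4 with UV-B and 72.7, 85.1 and 79 without it in Mphy5, against 0, 2.34 and 6.27 with and 0, 2.0 and 4.11 without it in Tak-1. MpPOD49 was at 0 in 1 Tak-1 library of each UV-B state, and all of its Mphy5 libraries were above 50. MpPOD4 (Mp1g14980) had 56.9, 58.3 and 56.1 with UV-B and 69.4, 78 and 62.7 without it in Mphy5, against 15.1, 19.9 and 2.09 with and 12.8, 2.0 and 6.16 without it in Tak-1. MpPOD71 (Mp5g04290) had 40.8, 43.7 and 58.5 with UV-B and 70.5, 43.7 and 80.6 without it in Mphy5, against 2.32, 25.7 and 0 with and 1.83, 34 and 4.11 without it in Tak-1. MpPOD92 (Mp5g10750) had 26.8, 57.5 and 39.4 with UV-B and 56.4, 60.1 and 45.6 without it in Mphy5, against 13.9, 1.17 and 9.4 with and 10.1, 11 and 9.24 without it in Tak-1. These 3 had fewer than 100 normalized reads in every library. MpPOD71 came close to an overlap, since replicate 2 of Tak-1 was much higher than the other Tak-1 libraries in both UV-B states. The smaller ratio of the 11 peroxidases ran from 4.35 to 17.6, with a median of 4.94. On chromosome 5 lie 8 of the 11, and 61 of the 135 other tested peroxidases (45.2%).

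Other peroxidases differed in both directions. Of the 135 tested peroxidases outside the 100 genes, limma called 38 higher (28.1%) and 22 lower (16.3%) in Mphy5 with UV-B. Of the 15899 tested genes outside the 100, 13.3% were called higher and 16.1% lower. Without UV-B it called 29 of the 135 higher (21.5%) and 19 lower (14.1%), where 10.5% and 14% of those 15899 genes were. The median log2 fold change of the 135 was 0.22 with and 0.16 without UV-B, against about 0 over the 15899. By the values themselves, 20 of 135 peroxidases (14.8%) had all 6 Mphy5 libraries above all 6 Tak-1 libraries. Of all tested genes 5.46% did, and 4.86% without the 100 chosen ones. These are counts over a list whose genes share sequence, and no set test was made.

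Pathogenesis-related (PR) proteins are secreted or defence proteins grouped by their rise in infected flowering plants. MpPR6c (Mp8g12160), of the class that holds proteinase inhibitors in flowering plants, had 475, 495 and 859.9 normalized reads with UV-B and 1104, 822 and 744 without it in Mphy5, against 10.5, 0 and 15.7 with and 12.8, 9.01 and 10.3 without it in Tak-1. MpPR1o (Mp5g16820), of the small secreted PR1 class, had 92.2, 142 and 134 normalized reads with UV-B and 172, 162 and 153 without it in Mphy5, against 22.1, 12.8 and 40.8 with and 37.6, 38 and 19.5 without it in Tak-1. MpPR1l (Mp4g16750), of the same class, had 21.4, 25.1 and 41.8 with UV-B and 24.9, 17.9 and 15.5 without it in Mphy5, against 0 in all 3 with and 0, 0 and 1.03 without it in Tak-1. All Mphy5 libraries of MpPR6c stood more than an order of magnitude above those of Tak-1, and MpPR1o and MpPR1l did not overlap between the lines either. For MpPR1l, 1 read in all was counted over the 6 Tak-1 libraries, and its mean was at least 8.72-fold higher in Mphy5 with UV-B, against a floor of 3 reads per library. Of the 27 other tested genes with PR symbols, 11 were called higher (40.7%) and 1 lower (3.7%) in Mphy5 with UV-B, and 9 (33.3%) and 2 (7.41%) without it, beside the 13.3% and 16.1%, and 10.5% and 14%, of tested genes outside the 100. Their median log2 fold changes were 1.52 with and 0.94 without UV-B. Of the 27, 8 (29.6%) had all Mphy5 libraries above all Tak-1 libraries. This list was drawn up after the chosen genes had been seen.

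Glycoside hydrolases of family 19 are chitinases, and those of family 17 are mostly β-1,3-glucanases, enzymes that act on fungal and plant walls. MpGH19.3 (Mp2g24440) had 92.2, 121 and 136 normalized reads with UV-B and 245, 249 and 197 without it in Mphy5, against 30.2, 25.7 and 4.18 with and 36.7, 21 and 14.4 without it in Tak-1. MpGH19.11 (Mp5g02480) had 55.8, 72.9 and 77.6 with UV-B and 132, 109 and 118 without it in Mphy5, against 16.3, 10.5 and 17.8 with and 11.9, 27 and 16.4 without it in Tak-1. MpGH17.10 (Mp2g14720) had 177, 179 and 164 with UV-B and 295, 204 and 159.6 without it in Mphy5, against 29.1, 16.4 and 35.5 with and 26.6, 40.0 and 28.7 without it in Tak-1. The 6 Mphy5 libraries of each lay above the 6 Tak-1 libraries. In Mphy5, both chitinases were lower in the 3 libraries with UV-B than in the 3 without, with no overlap. Neither was called by limma fitted on all groups (adjusted p = 0.23 and 0.069). Fitted on the 6 Mphy5 libraries alone, limma called both down (adjusted p = 0.00051 and 0.0083). So did the alternative tools edgeR (adjusted p = 0.029 and 0.027) and DESeq2 (adjusted p = 0.0096 and 0.019). Of the 12 other tested family 19 genes, 4 were called higher and 3 lower in Mphy5 with UV-B, and 5 and 3 without it; over tested genes outside the 100 the shares were 13.3% and 16.1% with and 10.5% and 14% without UV-B. Their median log2 fold changes were 0.05 with and 0.50 without UV-B. Of the 12, 2 (16.7%) had all Mphy5 libraries above all Tak-1 libraries. Like that of the PR proteins, this list was drawn up after the chosen genes had been seen.

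**Figure D2:**
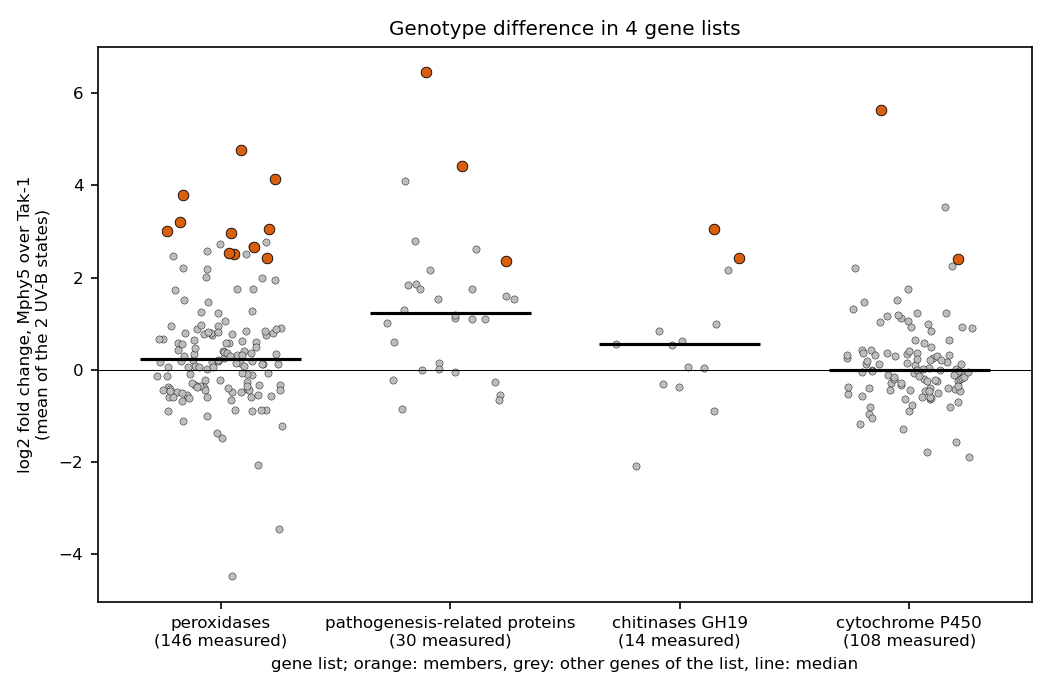
Log2 fold change of Mphy5 over Tak-1, averaged over both UV-B states, for every tested gene of 4 lists (146 peroxidases, 30 PR proteins, 14 family 19 chitinases and 108 cytochromes P450); orange points are the chosen genes, grey points the other genes of the list and lines the list medians. The chosen genes sit above 2 in all lists, and the peroxidase and cytochrome P450 medians lie near 0.

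Other named genes belong to oxidising and reducing enzymes. Cytochromes P450 are monooxygenases of many pathways, 2-oxoglutarate-dependent dioxygenases oxidise hormones and specialised metabolites, and genes like dihydroflavonol reductase (DFR) encode reductases. MpCYP704-like8 (Mp3g10820) had 1548, 1700.1 and 1732 normalized reads with UV-B and 1765, 1788 and 1641 without it in Mphy5, against 32.5, 42.1 and 33.4 with and 23.8, 27 and 43.1 without it in Tak-1. MpCYP829F4 (Mp5g21950) had 594, 801 and 733 with UV-B and 925, 918 and 716 without it in Mphy5, against 119, 118 and 145 with and 166, 195 and 139.6 without it in Tak-1. MpCYP704-like8 stayed within a narrow range in Mphy5, and its smaller ratio was 44.9. MpDFR-like16 (Mp8g02830) had 2124, 1888 and 2041 normalized reads with UV-B and 1270.0, 1061 and 1252 without it in Mphy5, against 315, 257 and 266 with and 169, 230.2 and 194 without it in Tak-1. MpDOXC15 (Mp3g11060) had 856, 882 and 759.6 with UV-B and 433, 538 and 638 without it in Mphy5, against 181, 199.8 and 179.7 with and 56.9, 61.1 and 67.8 without it in Tak-1. Both had more reads in every library with UV-B than in any without it, in both lines. The 106 other tested cytochromes P450 divided into 19 called higher (17.9%) and 32 lower (30.2%) in Mphy5 with UV-B, and 18 (17%) and 24 (22.6%) without it, against 13.3% and 16.1%, and 10.5% and 14%, of tested genes outside the 100.

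The remaining named genes are a regulator, an immune receptor and others. MpASLBD1 (Mp3g16240) belongs to the LATERAL ORGAN BOUNDARIES domain family of plant-specific transcription factors. It had 224, 135 and 202 normalized reads with UV-B and 194, 250.5 and 178 without it in Mphy5, against 0 in all 3 with and 0 in all 3 without it in Tak-1. No read of it was counted in any Tak-1 library, so its mean was at least 55.4-fold higher in Mphy5 with UV-B and at least 70.5-fold higher without it. MpNBS-LRR11 (Mp4g08790) belongs to the intracellular nucleotide-binding immune receptors. It had 25.7, 75.3 and 64.5 normalized reads with UV-B and 59.6, 35.9 and 52.9 without it in Mphy5, against 0, 0 and 11.5 with and 2.75, 9.01 and 1.03 without it in Tak-1. MpCAT4 (Mp5g07320) had 93.3, 30.8 and 92 with UV-B and 49.9, 74.1 and 79 without it in Mphy5, against 20.9, 4.67 and 5.22 with and 10.1, 15 and 13.3 without it in Tak-1. MpFBW3 (Mp5g21380) had 628, 861 and 669 with UV-B and 1023, 975 and 984 without it in Mphy5, against 126, 94.6 and 134 with and 129, 82.1 and 76 without it in Tak-1. For MpNBS-LRR11 and MpCAT4 the lowest Mphy5 library was less than 3 times the highest Tak-1 library, while for MpFBW3 it was well apart.

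Of the 100 genes, 41 lie in 15 runs, meaning that they follow each other in locus order with at most 5 listed genes between members; 9 runs hold 2 members and 6 hold more. No coordinates are given because the sources used here do not name the build of the files, and distances within runs are unknown. Copies in a run can be similar in sequence and share reads, and overlapping or antisense genes cannot be told apart where the use of strand is not given, so single values in runs are uncertain. Chromosome 5 held 23 members among 2383 listed genes (0.965%), chromosome 3 held 17 of 2410, chromosomes 1 and 4 held 13 each, chromosome 7 held 10, chromosome 6 held 9, chromosome 2 held 8 and chromosome 8 held 7.

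The run of chromosome 4 between Mp4g19890 and Mp4g19960 held 5 members, 3 of them among the 5 largest ratios without UV-B. Mp4g19930 had 5246, 4872 and 5357 normalized reads with UV-B and 4263, 5563 and 5176 without it in Mphy5, against 6.97, 0 and 4.18 with and 6.42, 16 and 16.4 without it in Tak-1. Mp4g19950 had 1157, 1048 and 1247 with UV-B and 1068, 1302 and 1275 without it in Mphy5, against 23.2, 8.18 and 5.22 with and 19.3, 44 and 44.1 without it in Tak-1. Mp4g19960 had 1285, 1378 and 1283 with UV-B and 1278, 1302 and 1373 without it in Mphy5, against 2.32, 0 and 2.09 with and 5.5, 3.0 and 2.05 without it in Tak-1. Each had over 1000 normalized reads in every Mphy5 library and fewer than 50 in every Tak-1 library. Mp4g19890 had 1040.5, 882 and 978 with UV-B and 737, 994 and 947 without it in Mphy5, against 0, 0 and 5.22 with and 0 in all 3 without it in Tak-1. Mp4g19940 had 151, 147 and 207 with UV-B and 527, 269 and 191 without it in Mphy5, against 2.32, 0 and 5.22 with and 0, 0 and 4.11 without it in Tak-1. Mp4g19890 had reads in 1 of 6 Tak-1 libraries, replicate 3 with UV-B, and without UV-B it was at least 303-fold higher in Mphy5. The excess skipped the genes in between. Mp4g19900 overlapped between the lines, with 64.4 to 334 in the 6 Mphy5 libraries, against 62.8 to 402 in the 6 Tak-1 libraries. Mp4g19920 went the other way, with 0 to 4.07 in the 6 Mphy5 libraries, against 8.21 to 44 in the 6 Tak-1 libraries. Just outside the run, Mp4g19880 did not overlap but missed the minimum of 20 without UV-B, with 10.8 to 26.7 in the 6 Mphy5 libraries, against 0 to 4.11 in the 6 Tak-1 libraries. On the other side Mp4g19970 overlapped, with 26.9 to 49 in the 6 Mphy5 libraries, against 11 to 46 in the 6 Tak-1 libraries. The next genes outward, Mp4g19870 and Mp4g19980, overlapped between the lines as well.

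The chromosome 7 run holds Mp7g06460, Mp7g06470 and Mp7g06490. Mp7g06470, the member with the most reads, had 23544, 26224 and 22207 normalized reads with UV-B and 24698, 24627 and 26134 without it in Mphy5, against 2400.5, 2178 and 2076 with and 1209, 1338 and 1309.8 without it in Tak-1. Mp7g06490 had 1564, 1862 and 1577 with UV-B and 1843, 1898 and 1874 without it in Mphy5, against 1.16, 0 and 1.04 with and 0, 0 and 1.03 without it in Tak-1. Mp7g06460 had 747, 580.5 and 408 with UV-B and 596, 491 and 728 without it in Mphy5, against 66.3, 50.2 and 30.3 with and 60.5, 84.1 and 27.7 without it in Tak-1. In Mp7g06490, Tak-1 had 3 reads over 6 libraries. Its ratio of means was 2274 with UV-B (95% interval 629 to 18781) and 5451 without it (95% interval 978 to 215344). Between them, Mp7g06480 differed far less, with 1305 to 1984 in the 6 Mphy5 libraries, against 691 to 1279 in the 6 Tak-1 libraries.

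**Figure D3:**
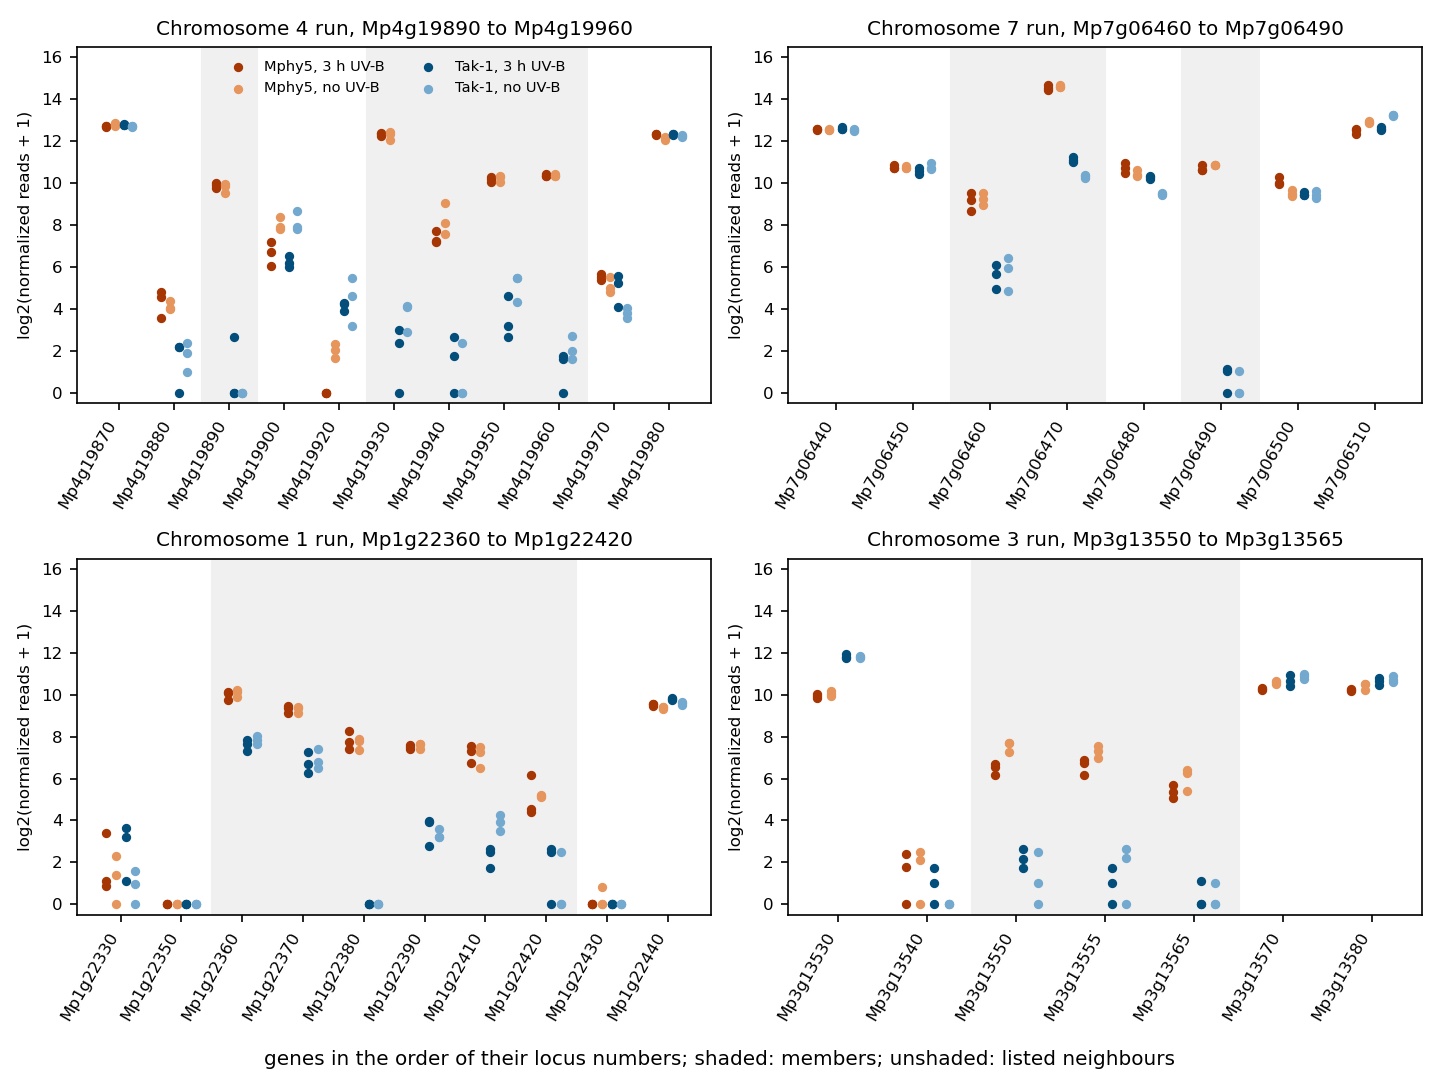
Log2(normalized reads + 1) of each library (points, coloured by group) for the genes of 4 runs and the 2 listed genes on each side, in locus order; members are shaded. Shaded genes have the Mphy5 points above the Tak-1 points, while most unshaded neighbours have them at similar heights.

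Chromosome 1 carries 3 runs. The longest holds 6 members with no listed gene between them. Mp1g22360 had 1093, 870.3 and 1118 normalized reads with UV-B and 957, 1187 and 1136 without it in Mphy5, against 201, 157 and 225 with and 229, 201 and 259 without it in Tak-1. Mp1g22370 had 696, 551 and 665 with UV-B and 557, 649 and 676 without it in Mphy5, against 76.7, 104 and 150.5 with and 89, 111 and 171 without it in Tak-1. Mp1g22380 had 307, 172 and 213 with UV-B and 166, 236 and 217 without it in Mphy5, against 0 in all 3 with and 0 in all 3 without it in Tak-1. The pattern changes along the run, since Tak-1 had over 100 reads at Mp1g22360 and none at Mp1g22380. Mp1g22390 had 183, 167 and 192 with UV-B and 199.6, 168 and 197 without it in Mphy5, against 13.9, 5.84 and 14.6 with and 8.25, 11 and 8.21 without it in Tak-1. Mp1g22410 had 156, 104 and 188 with UV-B and 90.0, 179 and 153 without it in Mphy5, against 2.32, 4.67 and 5.22 with and 18.3, 14 and 10.3 without it in Tak-1. Mp1g22420 had 20.4, 22.7 and 70.5 with UV-B and 35.8, 34.3 and 33.4 without it in Mphy5, against 4.65, 0 and 5.22 with and 4.59, 0 and 0 without it in Tak-1. In all 6 genes the lines did not overlap, and the outer neighbours Mp1g22350 and Mp1g22430 had 0 or almost 0 reads in all libraries. For Mp1g22380 the Mphy5 mean was at least 68.2-fold higher with UV-B and at least 70.1-fold higher without it.

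A shorter run on the same chromosome comprises Mp1g22245, Mp1g22250 and Mp1g22265. Mp1g22245 had 1919, 2124 and 2060.3 normalized reads with UV-B and 1983, 2093 and 1984 without it in Mphy5, against 325, 294 and 317 with and 281, 310.3 and 351 without it in Tak-1. Mp1g22250 had 569.6, 685 and 637 with UV-B and 621, 637 and 625 without it in Mphy5, against 90.7, 75.9 and 72.1 with and 128, 155 and 117 without it in Tak-1. Mp1g22265 had 585, 627 and 712 with UV-B and 795, 631 and 751 without it in Mphy5, against 126, 143 and 129.6 with and 154, 173 and 177 without it in Tak-1. None of the 3 was called for UV-B in Mphy5. Mp1g22255 between them was higher in Mphy5 as well, with 239.6 to 319 in the 6 Mphy5 libraries, against 32.4 to 97.1 in the 6 Tak-1 libraries, but missed the ratio without UV-B. The third run is the pair Mp1g14480 and Mp1g14490. Mp1g14480 had 18869, 18598 and 18262 with UV-B and 17501, 17574 and 18124 without it in Mphy5, against 3659, 3458 and 3450.4 with and 3939.7, 3901 and 4112 without it in Tak-1. Mp1g14490 had 3596, 3636 and 3812 with UV-B and 1847, 2019 and 1949 without it in Mphy5, against 521, 590.0 and 449 with and 442, 398 and 347 without it in Tak-1. Their ratios ran from 4.45 to 7.07, with no overlap between the lines. Together with Mp7g06470, Mp1g14480 held 48.2% to 51.4% of the reads of the 100 genes in Mphy5 and 53.3% to 60.7% in Tak-1.

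On chromosome 3, 3 adjacent genes formed a run. Mp3g13550 had 91.2, 103 and 70.5 normalized reads with UV-B and 208, 208 and 151 without it in Mphy5, against 3.49, 2.34 and 5.22 with and 4.59, 1.0 and 0 without it in Tak-1. Mp3g13555 had 69.7, 106 and 118 with UV-B and 187, 159 and 127 without it in Mphy5, against 0, 2.34 and 1.04 with and 3.67, 0 and 5.13 without it in Tak-1. Mp3g13565 had 32.2, 50.2 and 40.6 with UV-B and 74.8, 41.4 and 83.9 without it in Mphy5, against 0, 1.17 and 0 with and 0, 1.0 and 0 without it in Tak-1. Each was at or near the floor in Tak-1. The neighbour Mp3g13530 was lower in Mphy5, with 924 to 1175 in the 6 Mphy5 libraries, against 3405 to 3989 in the 6 Tak-1 libraries. On chromosome 2, MpGH19.3 was followed by Mp2g24450, and Mp2g25307 by Mp2g25310. Mp2g24450 had 115, 74.5 and 125 normalized reads with UV-B and 176, 109 and 122 without it in Mphy5, against 19.8, 10.5 and 27.2 with and 26.6, 19 and 33.9 without it in Tak-1. Mp2g25307 had 21.4, 48.6 and 49 with UV-B and 42.3, 38.2 and 44 without it in Mphy5, against 3.49, 2.34 and 4.18 with and 13.8, 7.01 and 7.19 without it in Tak-1. Mp2g25310 had 459, 635 and 610.3 with UV-B and 588, 614 and 675 without it in Mphy5, against 134, 113 and 111 with and 122, 160.2 and 131 without it in Tak-1. None of these overlapped between the lines, and past Mp2g25310 the excess went on in genes below the chosen ratio. Mp2g25320 had 1546 to 1777 in the 6 Mphy5 libraries, against 366 to 654 in the 6 Tak-1 libraries. Mp2g25325 had 423 to 639 in the 6 Mphy5 libraries, against 153 to 260.2 in the 6 Tak-1 libraries.

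Of the runs on chromosomes 4 and 5 that hold peroxidases, the pair MpPOD49 and MpPR1l joins genes of different families. MpPOD54 and MpPOD55 are adjacent, MpPOD71 and MpPOD73 have 2 nearly silent genes between them, and MpPOD89 and MpPOD92 have 5. A further chromosome 5 run has Mp5g02060 and Mp5g02105 as its ends. Mp5g02060 had 333, 366 and 225 normalized reads with UV-B and 559, 452 and 436 without it in Mphy5, against 61.6, 39.7 and 39.7 with and 67.9, 92.1 and 45.2 without it in Tak-1. Mp5g02105 had 27.9, 51.8 and 59.7 with UV-B and 49.9, 53.1 and 61.1 without it in Mphy5, against 6.97, 5.84 and 12.5 with and 6.42, 3.0 and 8.21 without it in Tak-1. Of the 4 genes between them, Mp5g02080 and Mp5g02100 also had all Mphy5 libraries above all Tak-1 libraries, with 42.9 to 90.0 in the 6 Mphy5 libraries, against 4.0 to 23.4 in the 6 Tak-1 libraries for Mp5g02080. Mp5g02100 had 48.3 to 91.3 in the 6 Mphy5 libraries, against 7.34 to 23.2 in the 6 Tak-1 libraries.

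The chromosome 6 run contains Mp6g17500, Mp6g17520 and Mp6g17525 and ends beside a gene of the opposite kind. Mp6g17500 had 34.3, 41.3 and 32.2 normalized reads with UV-B and 55.3, 76.5 and 70.8 without it in Mphy5, against 3.49, 5.84 and 11.5 with and 4.59, 26 and 16.4 without it in Tak-1. Mp6g17520 had 44, 22.7 and 63.3 with UV-B and 41.2, 28.9 and 33.4 without it in Mphy5, against 2.32, 4.67 and 1.04 with and 3.67, 5.0 and 3.08 without it in Tak-1. Mp6g17525 had 221, 244 and 188 with UV-B and 74.8, 81.2 and 71.7 without it in Mphy5, against 39.5, 50.2 and 43.9 with and 7.34, 29 and 10.3 without it in Tak-1. The next gene, Mp6g17530, belongs to the 78 that were always lower in Mphy5, with 1.19 to 7.51 in the 6 Mphy5 libraries, against 158 to 277 in the 6 Tak-1 libraries. The last run is Mp7g05260 and Mp7g05305 on chromosome 7. Mp7g05260 had 62.2, 98 and 133 with UV-B and 221, 268 and 239 without it in Mphy5, against 10.5, 12.8 and 31.4 with and 21.1, 49 and 35.9 without it in Tak-1. Mp7g05305 had 161, 266 and 312 with UV-B and 628, 615 and 466 without it in Mphy5, against 9.3, 37.4 and 9.4 with and 27.5, 52 and 35.9 without it in Tak-1. In Mphy5 both were lower in every library with UV-B than in every library without it, and the 2 genes between them were almost silent.

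Among members outside runs and without a symbol, several had few reads in Tak-1, above all without UV-B. Mp6g10280 had 1108, 1129 and 1191 normalized reads with UV-B and 1156, 1114 and 1146 without it in Mphy5, against 1.16, 5.84 and 0 with and 0 in all 3 without it in Tak-1. Mp4g19400 had 169, 177 and 188 with UV-B and 198, 212 and 203 without it in Mphy5, against 4.65, 10.5 and 13.6 with and 1.83, 2.0 and 0 without it in Tak-1. Mp6g16370 had 224, 249 and 201 with UV-B and 142, 102 and 97.7 without it in Mphy5, against 29.1, 29.2 and 15.7 with and 2.75, 2.0 and 3.08 without it in Tak-1. Mp6g10280 had 6 reads in all in Tak-1 with UV-B and 0 without it, where Mphy5 was at least 387-fold higher. Mp6g17690 had 1636, 1344 and 1729 with UV-B and 1261, 1693 and 1733 without it in Mphy5, against 26.7, 18.7 and 21.9 with and 67.9, 94.1 and 48.2 without it in Tak-1. Mp7g00780 had 926, 1157 and 1062 with UV-B and 1452, 1418 and 1527 without it in Mphy5, against 269.7, 224 and 212 with and 276, 374 and 276 without it in Tak-1. Mp4g04860 had 34.3, 65.6 and 49 with UV-B and 108, 152 and 107 without it in Mphy5, against 6.97, 7.01 and 3.13 with and 11.9, 7.01 and 13.3 without it in Tak-1. These 3 had reads in all 12 libraries and no overlap between the lines. Besides MpASLBD1 and Mp1g22380, the genes with no read in Tak-1 were Mp2g09700, Mp3g01100 and Mp7g04960, named after their values were seen. They had few reads in Mphy5 as well, at 26 to 47.6, 25.8 to 56.7 and 22.5 to 55.4 normalized reads in that order, and their lower bounds on the fold ran from 9.63 to 15.8.

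The other 37 members have no symbol and lie outside runs. Their means over 6 libraries ran from 21.5 to 889 in Mphy5, with a median of 92.1, and from 0 to 92.1 in Tak-1, with a median of 5.26. Their smaller ratio ran from 4.02 to 42.4, with a median of 7.2. Those averaging over 300 in Mphy5 were Mp4g07800, Mp5g22410, Mp8g02640, Mp8g10460 and Mp8g15055. Mp2g18790, Mp5g02620, Mp5g21460, Mp5g21660, Mp5g21760, Mp5g24500, Mp6g09000, Mp7g10880, Mp7g13090, Mp8g03510 and Mp8g11260 averaged over 100. The rest were Mp1g05780, Mp2g09030, Mp2g09700, Mp3g01100, Mp3g03850, Mp3g05230, Mp3g08380, Mp3g09210, Mp3g10040, Mp3g10270, Mp3g10470, Mp3g11510, Mp3g12000, Mp3g19730, Mp4g16526, Mp4g16980, Mp5g12100, Mp5g20047, Mp6g12320, Mp7g04960 and Mp7g12040.

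Genes just outside the thresholds had ratios close to those just inside. Just inside, Mp4g07800 had a smaller ratio of 4.02, Mp3g12000 of 4.08 and Mp6g17500 of 4.11. Just outside, Mp7g02900 had 3.96, Mp7g04460 had 3.93 and Mp5g02080, which lies inside a run, had 3.93. Mp7g02900 had more reads than any member, averaging 40926 normalized reads in Mphy5 and 9831 in Tak-1. Mp3g17070 alone missed only by overlap, with a lowest Mphy5 library of 49.9 and a highest Tak-1 library of 51.2.

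**Figure D4:**
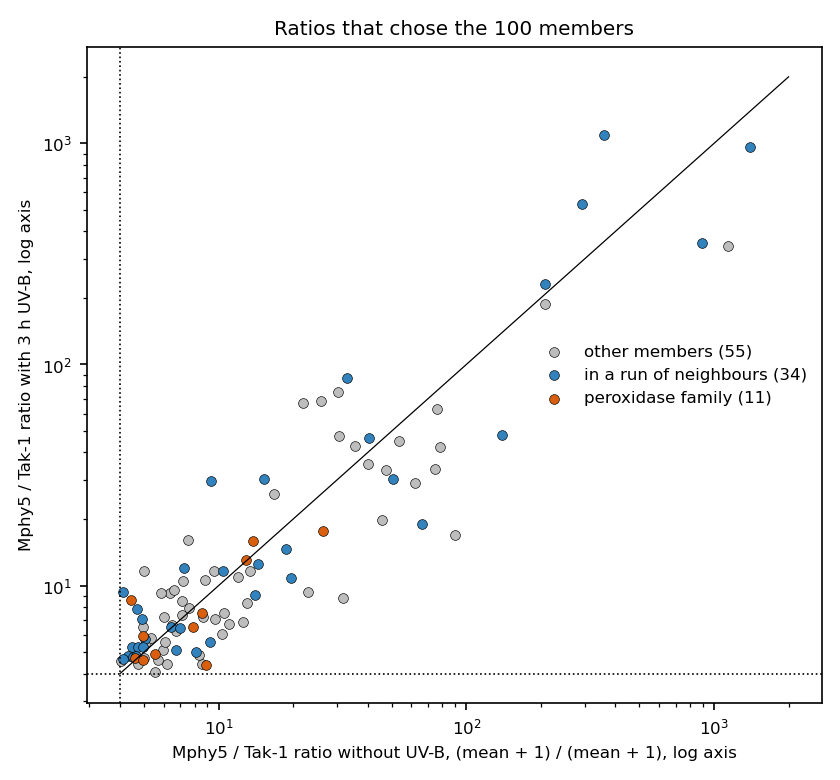
Ratio of (mean + 1) in Mphy5 to (mean + 1) in Tak-1 with UV-B (vertical, log axis) against that without UV-B (horizontal, log axis) for the 100 genes; dotted lines mark the threshold of 4 and the solid line equal ratios, and blue points exclude the peroxidases that lie in runs. Of the 100 genes, 48 sit below 10 on both axes, and 6 exceed 200 on both, none of them a peroxidase.

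No response to 3 h of UV-B was asked for in choosing these genes, so the response within each line could be tested. The choice was still not free of it. The demand for no overlap over both UV-B states can drop a gene with a large response, and 1 gene, Mp3g17070, missed only by overlap. The difference of responses between the lines compares the ratios of both UV-B states, which were used in the choice. The effect of these demands, and of the minimum in both states, on the shares called was not tested. Most of the 100 genes were not called. limma, fitted over 15999 genes with Benjamini-Hochberg adjustment at 0.05, called 10 of the 100 in Mphy5, 5 up and 5 down, where 31.8% of all tested genes were called (15.9% up and 15.9% down). In Tak-1 it called 22, 9 up and 13 down, where 29.2% of all tested genes were called (14.6% up and 14.6% down). In both lines 6 were called, 5 up and 1 down, in at least 1 line 26, and in neither 74; none was called in opposite directions. Without adjustment, 15 had p under 0.05 in Mphy5 and 30 in Tak-1. The tests on these genes were less precise than on others: their median standard error (log2) was 0.46, against 0.094 over all tested genes. In this fit, all 4 groups share 1 estimate of the spread per gene. Fitted on each line alone, the median standard error of the 100 genes was 0.23 in Mphy5 and 0.58 in Tak-1. These fits called 23 of the 100 in Mphy5 and 15 in Tak-1, beside 31.1% and 28.4% of all tested genes. A fitted change of at least 2-fold, called or not, was found in 9 of the 100 in Mphy5 and 22 in Tak-1, against 8.66% and 8.09% of all tested genes.

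The 5 genes that rose with UV-B in Mphy5 also rose in Tak-1; their log2 fold changes are given ± SE with limma's adjusted p. MpDFR-like16, by its name related to a reductase of flavonoid synthesis, rose by 0.76 ± 0.11 (adjusted p = 1.8e-05) in Mphy5 and by 0.50 ± 0.11 (adjusted p = 0.0018) in Tak-1. MpDOXC15 rose by 0.65 ± 0.14 (adjusted p = 0.0012) in Mphy5 and by 1.58 ± 0.14 (adjusted p = 2.7e-08) in Tak-1. All 3 libraries with UV-B lay above all 3 without it in both lines for these enzymes. Mp1g14490 rose by 0.93 ± 0.09 (adjusted p = 9.7e-08) in Mphy5 and by 0.39 ± 0.09 (adjusted p = 0.0028) in Tak-1. Mp6g17525 rose by 1.50 ± 0.35 (adjusted p = 0.0018) in Mphy5 and by 1.68 ± 0.35 (adjusted p = 0.00078) in Tak-1. Mp6g16370 rose by 0.99 ± 0.31 (adjusted p = 0.019) in Mphy5 and by 2.79 ± 0.31 (adjusted p = 6e-07) in Tak-1, where it stood near the floor without UV-B. The call of Mp6g16370 in Mphy5 was lost without replicate 2 or 3 of Mphy5 without UV-B or replicate 1 or 2 of Mphy5 with UV-B, with adjusted p of 0.058 to 0.082.

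Of the 5 falls in Mphy5, 1 was also called in Tak-1. Mp7g00780, the gene that fell in both lines, changed by -0.49 ± 0.12 (adjusted p = 0.0033) in Mphy5 and by -0.38 ± 0.12 (adjusted p = 0.021) in Tak-1. Mp7g05260 fell by 1.37 ± 0.38 (adjusted p = 0.0081) in Mphy5, and Mp4g04860 by 1.31 ± 0.39 (adjusted p = 0.013). For all 5 falls, no Mphy5 library with UV-B reached the lowest one without it. Mp5g02060 fell by 0.67 ± 0.25 (adjusted p = 0.047) and MpFBW3 by 0.48 ± 0.18 (adjusted p = 0.0497) on the log2 scale. Leaving out single libraries ended the call of each in 7 of 12 cases, namely any library of Mphy5 without UV-B and replicates 1 and 3 of Mphy5 with UV-B. For Mp5g02060 these were also replicate 1 of Tak-1 without and replicate 2 with UV-B (adjusted p up to 0.23), and for MpFBW3 replicate 2 without and replicate 1 with UV-B (up to 0.18). A pseudocount of 0.1, no filter on low values, or limma without its trend and robust options ended both calls as well, and TMM rescaling ended that of MpFBW3 (0.0504). The call of Mp7g05260 ended without replicate 1 of Mphy5 with UV-B (adjusted p = 0.051). That of Mp4g04860 ended without the same library (0.073) or without replicate 2 of Mphy5 without UV-B (0.074).

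The number of falls in Mphy5 differed between fits. The median coefficient of variation (SD over mean) of the 100 genes was 18.8% with and 16.1% without UV-B in Mphy5, against 57.4% and 44.0% in Tak-1. Fitted on the 6 Mphy5 libraries alone, limma called 18 of the 100 down, where 15.6% of all tested genes were, with a median standard error of 0.23 for the 100 genes. On recovered reads, edgeR called 11 down and DESeq2 14, where edgeR called 16.1% of all tested genes down and DESeq2 18% of those it gave an adjusted p. Mp3g03850, Mp3g13550, MpGH19.11, Mp5g22410 and Mp7g05305, picked after their values were seen, were called down by edgeR, by DESeq2, by the fit of Mphy5 alone and with a pseudocount of 5, but not in the fit of all groups. In that fit they had log2 changes of -1.57, -1.09, -0.80, -1.97 and -1.25 in that order, with adjusted p of 0.058 to 0.11.

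In Tak-1, the 10 smallest adjusted p-values covered 6 rises and 4 falls. Besides the genes that rose in both lines, Mp7g06470 rose by 0.79 ± 0.06 (adjusted p = 5.1e-09), and Mp4g19400 by 2.27 ± 0.42 (adjusted p = 0.00028) with all libraries with UV-B above those without. Among the falls, Mp6g17690 changed by -1.56 ± 0.20 (adjusted p = 8.3e-06) and Mp1g22250 by -0.74 ± 0.14 (adjusted p = 0.00034). MpPOD54 changed by -1.30 ± 0.25 (adjusted p = 0.0004) and Mp1g22410 by -1.60 ± 0.37 (adjusted p = 0.002). MpPOD54 was the single peroxidase of the 11 called in Tak-1, and none of the 11 was called in Mphy5. Of the other 12 calls, Mp1g14490, Mp6g10280 and Mp8g11260 rose by 0.39 to 1.34. Mp1g14480, Mp1g22265, Mp2g18790, Mp2g25307, Mp4g07800, Mp4g19950, Mp7g00780, Mp8g02640 and Mp8g15055 had changes of -2.18 to -0.18. Some of the 22 calls in Tak-1 rest on few reads. Over the 3 libraries of each Tak-1 group, Mp6g10280 had 6 reads with UV-B and 0 without it, and Mp2g18790 had 2 and 20. Mp4g19400 had 26 reads with UV-B and 4 without it, and Mp6g16370 had 65 and 8. For Mp4g07800, Mp4g19950, Mp6g10280 and Mp8g11260, Tak-1 libraries with and without UV-B overlapped. In 18 of the 22, the 3 libraries with UV-B did not overlap the 3 without it, and 28.3% of all tested genes were called with groups that did not overlap; in Mphy5 this held for all 10 called, and for 30.9% of all tested genes.

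**Figure D5:**
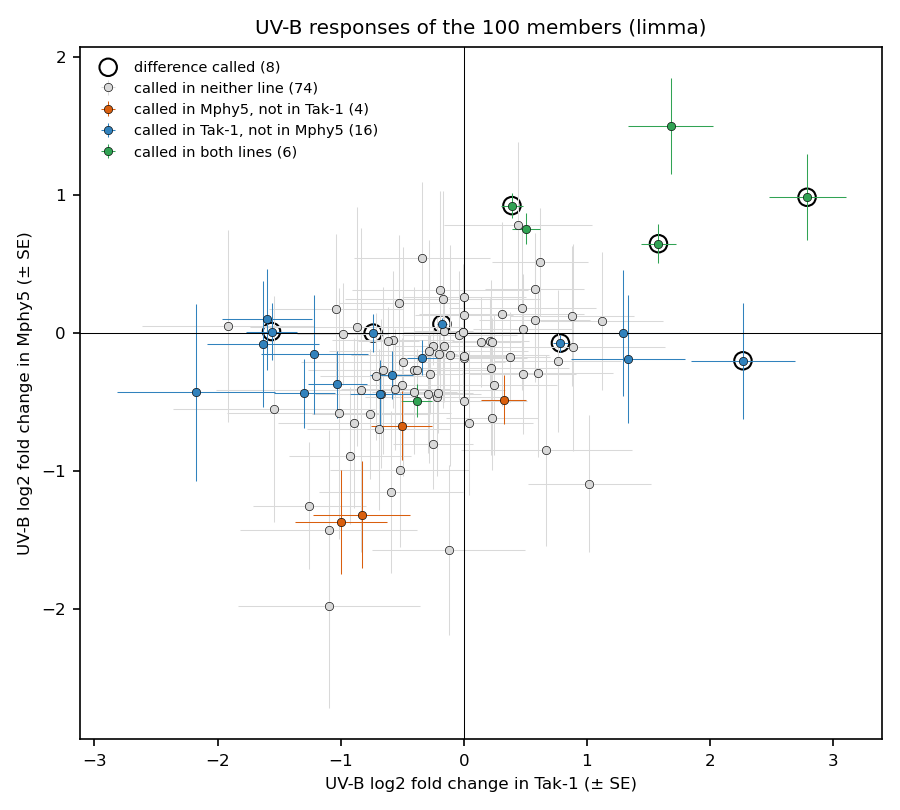
UV-B log2 fold change in Mphy5 (vertical) against that in Tak-1 (horizontal) for the 100 genes, each with its standard error from limma; colours give the calls in each line and circles mark the 8 genes whose difference of responses was called. The 5 genes that rose in both lines lie in the upper right, and the 74 called in neither are grey.

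The excess of Mphy5 itself differed between UV-B states for 8 genes, 4 with a positive and 4 with a negative difference of responses (Mphy5 minus Tak-1). Of all tested genes, 4.46% were called for this difference (1.93% up and 2.54% down). The ratios of both UV-B states, which this difference compares, were used in choosing the genes, and the effect of that on the calls was not tested. With UV-B, the gap narrowed for Mp7g06470, MpDOXC15, Mp4g19400 and Mp6g16370, all of which rose in Tak-1. The difference of responses, Mphy5 minus Tak-1, was -0.86 ± 0.09 (adjusted p = 6.7e-06) for Mp7g06470, whose change in Mphy5 was -0.07 ± 0.06 (adjusted p = 0.45). It was -0.93 ± 0.20 (adjusted p = 0.0087) for MpDOXC15, -2.47 ± 0.60 (adjusted p = 0.019) for Mp4g19400 and -1.80 ± 0.44 (adjusted p = 0.021) for Mp6g16370. Over the 3 Tak-1 libraries without UV-B, Mp4g19400 had 4 reads and Mp6g16370 had 8. The excess widened for Mp6g17690, which dropped in Tak-1 to below the lowest library without UV-B and was not called in Mphy5, with a difference of 1.57 ± 0.29 (adjusted p = 0.003). It widened by 0.74 ± 0.20 (adjusted p = 0.035) for Mp1g22250, by 0.53 ± 0.13 (adjusted p = 0.021) for Mp1g14490 and by 0.24 ± 0.06 (adjusted p = 0.018) for its neighbour Mp1g14480. Leaving out single libraries, the calls of Mp7g06470, Mp6g17690 and MpDOXC15 held in all 12 cases. That of Mp1g14480 ended without replicate 2 of Mphy5 without UV-B or replicate 3 of Tak-1 without UV-B (adjusted p up to 0.061). That of Mp4g19400 ended without replicate 2 of Mphy5 without or replicate 1 of Mphy5 with UV-B (up to 0.0598), and that of Mp1g14490 without replicate 1 of Mphy5 without UV-B, replicate 3 of Mphy5 with it or replicate 1 of Tak-1 without it (up to 0.065). For Mp6g16370 it ended without replicate 1 of Mphy5 without UV-B, replicate 1 or 3 of Mphy5 with it, or replicate 1 or 2 of Tak-1 with it (up to 0.065). For Mp1g22250 it ended in 9 of 12 cases, all but replicate 1 of Mphy5 with UV-B, replicate 3 of Tak-1 without it and replicate 1 of Tak-1 with it (up to 0.097). In limma without its trend and robust options none of the 4 positive differences was called, with adjusted p of 0.055 to 0.14, while 6 genes had a positive difference at an unadjusted p under 0.05; edgeR called 4 and DESeq2 6. Mp4g19400 was also not called there (0.092) or with a pseudocount of 0.1 (0.15), nor Mp6g16370 with a pseudocount of 5 (0.16).

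The replicates of these genes differed more from each other than those of tested genes in general. For tested genes with a mean of at least 19, the median coefficient of variation in Mphy5 was 5.72% with and 5.82% without UV-B, against 18.8% and 16.1% for the 100 genes. In Mphy5 without UV-B, replicate 1 was more than double both other replicates in 5 of the 100 genes, against 0.249% of tested genes with a mean of at least 19. That set has no upper limit on the mean, so neither comparison is matched for level. This library had the highest such count of all Mphy5 libraries. Replicates 2 and 3 without UV-B had 0 such genes each, and replicates 1, 2 and 3 with UV-B had 0, 1 and 1. In those libraries the share of the tested genes was 0.124% to 0.202%. The 5 genes of replicate 1 without UV-B were Mp2g18790, Mp5g02620, Mp5g20047, Mp5g21760 and Mp8g10460, named after their values were seen. Mp8g10460 had 957, 325 and 186 there, and Mp5g02620 had 469.6, 173 and 106. Their lowest Mphy5 libraries still lay above all Tak-1 libraries.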

How the data were processed

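Single-end reads of 100 bases from 12 libraries went through STAR 2.7.4 (tool and version per the submitters' processing notes). The authors deposited 1 signal table of normalized values per gene. How reads were counted, with which strand setting, annotation and build, was not given in the sources used here. Within each library, 100% of values above 0 were multiples of a single step to within 0.02 reads, which allowed whole reads to be recovered. Names came from a RefSeq gene table, where 99.1% of 18255 identifiers were found.

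limma 3.58.1 (R 4.3.3) was run on log2(value + 1) with 4 group means, trend and robust options and 8 residual degrees of freedom, over 15999 genes with at least 1 in at least 3 libraries. Fold changes on this scale understate the change of low genes. edgeR 4.0.16 and DESeq2 1.42.0 were run on recovered reads as alternatives. These and the main limma fit were tried on simulated data for the UV-B responses and their difference. The contrasts between the lines and the other fits were not. Folds against a group at 0 are bounds against 3 reads per library. Python 3.11.15 with pandas 2.3.3 and matplotlib 3.10.9 made the tables and plots.

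The genes and lists were chosen with earlier results of these data known. Values in every library are given for genes in runs, with symbols, with the 10 highest Mphy5 means, the 5 largest ratios without UV-B, and up to 10 UV-B calls per contrast by adjusted p. Roles are given only where a symbol names a family. A planned comparison of the protein sequences was not made, and no sequences were used here.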

Additional observations from a re-analysis of the deposited data

Results flagged for a closer look

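The UV-B responses of 8 genes differed between the lines by the test of the difference itself (limma, Mphy5 minus Tak-1, log2, adjusted p under 0.05 over all genes). The genes had been chosen on the ratios of both UV-B states, which this difference compares. The difference was negative for Mp4g19400 (-2.47), Mp6g16370 (-1.80), MpDOXC15 or Mp3g11060 (-0.93) and Mp7g06470 (-0.86). It was positive for Mp6g17690 (1.57), Mp1g22250 (0.74), Mp1g14490 (0.53) and Mp1g14480 (0.24). In 7 of the 8, Tak-1 was called and Mphy5 was either not called or changed less; Mp1g14490 rose more in Mphy5. No test for single outlying libraries was made within groups of 3.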

How the results depend on the processing

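The count of genes that fell in Mphy5, 5 in the fit reported, was 3 with a pseudocount of 0.1, 10 with a pseudocount of 5, 18 when only the groups compared were fitted, 3 in limma without trend and robust options, 11 in edgeR and 14 in DESeq2, and 1 to 8 when each library was left out in turn. Of the UV-B-treated Mphy5 libraries, leaving out replicate 1 gave 1 and replicate 3 gave 3. Of the untreated Mphy5 libraries, replicate 1 gave 3 and replicate 2 gave 2. Leaving out replicate 3 of treated Tak-1 gave 8. Rises in Mphy5 numbered 4 to 5 without single libraries. In Tak-1, falls numbered 8 when only the groups compared were fitted and 9 to 15 without single libraries, and rises 7 to 10. Positive differences of responses (Mphy5 minus Tak-1), 4 in the fit reported, numbered 0 in limma without trend and robust options (6 at an unadjusted p under 0.05; 4 in edgeR and 6 in DESeq2) and 2 to 5 without single libraries. They were 2 without replicate 1 or 2 of Mphy5 without UV-B, replicate 3 of Mphy5 with UV-B or replicate 1 of Tak-1 without UV-B. Negative differences numbered 2 to 6, with 2 without replicate 1 of Mphy5 with UV-B. The choice of genes gave 44 with an 8-fold minimum and 96 to 106 without single libraries. Of the named UV-B results, 579 values under alternatives kept their call, 57 lost it and 0 changed direction; in limma without trend and robust options, the difference of Mp6g17690 had an adjusted p of 0.055. The cause of these changes was not tested. Over all tested genes, same-numbered libraries of different groups did not deviate together (correlations of -0.017 to 0.054 in 18 pairs). Such correlations cannot exclude a shared culture or batch, and the labels do not say what the number stands for. With libraries paired by that number all the same, 61 genes had a ratio over 4 in each of 3 pairs of both UV-B states. With the number as a block in the fit, limma called 5 up and 5 down in Mphy5. It called 9 and 13 in Tak-1, and 4 and 4 for the difference. In Mphy5 4 of the 5 falls were shared, and MpFBW3 lost its call (adjusted p = 0.058). Depth limits the genes near the floor of 3 reads in Tak-1, where ratios are bounds or have wide intervals.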

Other observations

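Of the 100 genes, 3 lie directly beside a gene of the mirrored set, the 78 genes always lower in Mphy5. Mp3g10470 had 67.1 to 104 in the 6 Mphy5 libraries, against 0 to 3.67 in the 6 Tak-1 libraries, and its neighbour Mp3g10460 had 1.19 to 11.8 in the 6 Mphy5 libraries, against 1040.0 to 1737 in the 6 Tak-1 libraries. Mp3g12000 had 56.4 to 123 in the 6 Mphy5 libraries, against 7.34 to 31.4 in the 6 Tak-1 libraries, and its neighbour Mp3g12010 had 27.7 to 47.8 in the 6 Mphy5 libraries, against 319 to 536 in the 6 Tak-1 libraries. The third pair is Mp6g17525 beside Mp6g17530. In the mirrored set, 12 genes were at 0 in all 6 Mphy5 libraries, 9 had a symbol and 1 was a peroxidase, against 11 peroxidases among the 100.

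Other lists of specialised metabolism held no member of the 100. Calls by limma were mostly higher in Mphy5 for the chalcone synthase family, dirigent proteins, lipoxygenases and phenylalanine ammonia-lyases. They were divided or mostly lower for the other lists given here. Of all tested genes, 13.8% were called higher and 16% lower with UV-B, and 11% and 13.9% without it. Of 25 tested genes of the chalcone synthase family, which opens flavonoid synthesis, 12 were called higher and 1 lower in Mphy5 with UV-B, and 13 and 1 without it. Of 48 tested dirigent proteins, which guide the coupling of phenolic radicals, 16 were called higher and 8 lower with UV-B, and 18 and 7 without it. The 16 tested lipoxygenases, enzymes of oxylipin synthesis, divided into 5 and 2 with UV-B and 5 and 1 without it. Of 11 phenylalanine ammonia-lyases, which open phenylpropanoid synthesis, 6 were called higher and 0 lower with UV-B, and 3 and 1 without it. Of 19 tested terpene synthases, 3 were called higher and 5 lower with UV-B, and 1 and 6 without it. The 43 tested polyphenol oxidases gave 9 and 10 with UV-B and 6 and 9 without it, and the 118 tested glycosyltransferases 21 and 19 with and 11 and 20 without it.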
